A study of Mus musculus with 6 samples.

Results

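The genes described here encode extracellular and membrane antagonists of bone morphogenetic proteins (BMPs), activins and Wnts, and they were followed in primary keratinocytes with and without the lipid hydroperoxide reductase Gpx4. The 10 genes, Fst, Fstl1, Fstl3, Sostdc1, Nog, Grem1, Bambi, Dkk3, Sfrp1 and Wif1, were taken by name. Every probe set annotated to exactly 1 of them was kept, which gave 18 probe sets for 10 of the 18193 genes on the array. The group was chosen by the measured knockout against control differences of Fst, which was higher, and Sostdc1, which was lower. The knockout against control values of the 10 genes are therefore given as a description and support nothing. Bambi encodes a membrane pseudoreceptor and not a secreted protein, so the group is not purely secreted.

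BMPs and activins are ligands of the TGF-beta superfamily that signal through paired type I and type II receptor kinases to SMAD transcription factors, and Wnts signal through frizzled receptors with LRP co-receptors to beta-catenin. Most antagonists bind the ligand outside the cell and keep it from its receptor, and some occupy the co-receptor instead. In skin these antagonists are known for their part in placode spacing, in hair follicle formation and cycling, and in wound repair.

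Total RNA was profiled on 1-colour Affymetrix arrays from keratinocytes of newborn mice on a C57BL6/FVB background, cultured in media with 100 nM sodium selenite throughout. In the knockout group Gpx4 had been deleted by cre recombinase from a keratin 14 promoter, whose activity is in basal cells of the epidermis. The control group is labelled only as control, and the labels do not say which alleles it carries. Each array holds cells pooled within 1 genotype of 1 litter, and litters A, B and C gave 3 control and 3 knockout arrays, compared within litters.

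Levels below are quantile-normalized intensities, a linear scale on which the median probe set of an array lay at 17.5. Log2 changes are knockout minus control ± SE of log2(intensity + 16) from limma with litter as a block, which understates the change of dim genes. A probe set is said to be called, to rise or to fall where its Benjamini-Hochberg adjusted p over all 45037 probe sets was under 0.05. A gene is called dim where both group means were under 32. Levels of different probe sets are not compared with each other. Only 6 arrays were made, which limits precision. Where 3 values of a genotype or 3 within-litter differences are given together, they follow the order of litters A, B and C.

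Gpx4, the targeted gene, fell from 527.8 ± 27.8 (SD, n = 3) to 229.3 ± 26.4 (SD, n = 3), a log2 change of -1.15 ± 0.091. It was not called as deposited (-1.34), without an intensity trend in the fit (limma adjusted p = 0.1), with the mean of its 2 probe sets (-1.28, 0.0635), without litter A (-1.14) or without litter B (-1.21). None of the 9 measured keratinocyte markers was dim, and their summed intensity was 34775.5 to 37217 in controls and 34761.1 to 35486.7 in knockouts. Of the 9, Trp63, Col17a1 and Perp were lower in the knockout of every litter but not called. Their log2 changes were -0.43 ± 0.076 (limma adjusted p = 0.0816), -0.36 ± 0.11 (0.213) and -0.12 ± 0.067 (0.457). Krt6a was higher in every litter without overlap of the groups, at 0.08 ± 0.064 (0.625). The Y-linked Eif2s3y lay between 155.5 and 185.3 in the 3 controls and between 0.667 and 4.62 in the 3 knockouts, so a difference in the sex of the pooled animals and the genotype cannot be told apart. The summed intensity of 9 melanocyte markers was 4721.9 to 4851.3 in controls and 6534.9 to 7200.9 in knockouts, none of the 9 was dim, and Tyrp1 and Mlana rose. The 11 fibroblast markers summed to 239.9 and 250.1 in the controls of litters A and B, to 713.4 in the control of litter C and to 524.4 to 772.3 in the knockouts, with Dcn, Lum, Twist2 and Dpt dim. Of 9 dermal papilla markers 7 were dim, and their sum was 130.3, 141.3 and 397 in controls and 254.9 to 297.9 in knockouts. All 8 endothelial markers and 6 of 9 immune markers were dim. The 8 muscle markers, 5 of them dim, summed to 2282.9 to 3385.2 in controls and 2791.7 to 3079 in knockouts. Most of each muscle sum was Acta2, with 2859.9, 2881.7 and 1797.9 in controls and 2217.4, 2193.4 and 2296.6 in knockouts. The immune markers summed to 125.6 to 186.2 and 152.3 to 216.8, and the endothelial markers to 57.7 to 82.8 and 67.8 to 74.6. The part of the melanocyte and fibroblast signals in the results below was not tested.

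Fst was higher and Sostdc1 lower in the knockout, and the other 8 genes were not called. Over all probe sets 189 of 45037 (0.42%) were called, 0.158% higher and 0.262% lower. Of the 18 antagonist probe sets 4 were called, both of Fst higher and both of Sostdc1 lower, and since these differences chose the group nothing is read from that count. Control and knockout arrays did not overlap on 5 of the 18 probe sets, beside 18.2% of all probe sets. These were both of Fst, the less bright ones of Sostdc1 and Dkk3 and the brighter one of Fstl1. Since Fst and Sostdc1 chose the group, nothing is read from this count either. The median log2 change of the 10 genes was 0.03, beside 0.0018 over all probe sets. The uncalled 8 lay between -0.39 and 0.39.

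**Figure D1:**
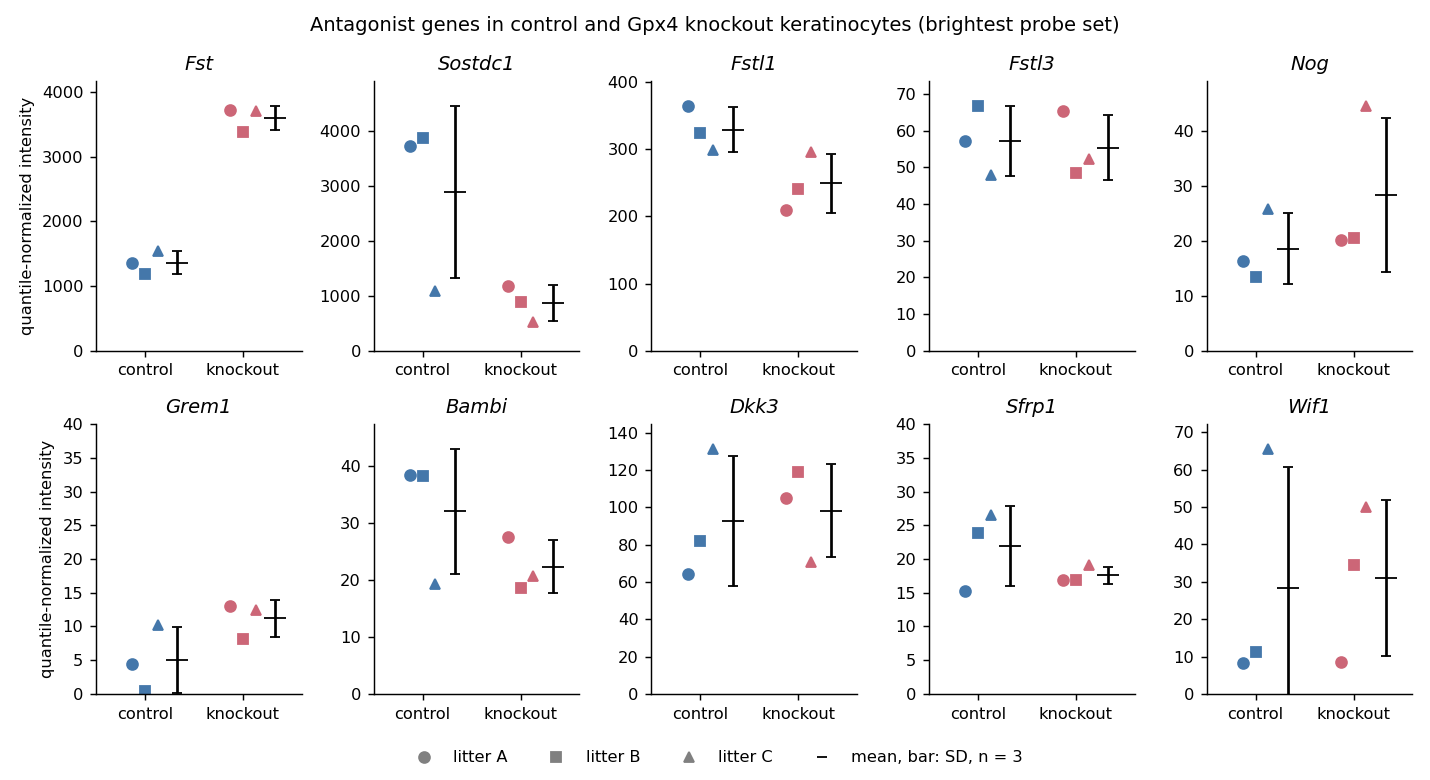
Quantile-normalized intensity of the brightest probe set of each of the 10 genes in 3 control (blue) and 3 knockout (red) arrays, with marker shapes for litters and black bars for the mean ± SD (n = 3, cut at 0 for Wif1). Fst separates the genotypes, from 1188.9 to 1537.3 in controls and from 3383.8 to 3715.1 in knockouts, whereas for Sostdc1 the control of litter C (1092.3) lies among the knockouts.

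The activin antagonists were led by Fst. Follistatin, its product, binds activins almost irreversibly and also binds some BMPs, and the gene lies on chromosome 13 (chr13:114452262-114458989, with all positions here on GRCm38.p6). The brighter of its 2 probe sets had intensities of 1355.2, 1188.9 and 1537.3 in controls and of 3715.1, 3383.8 and 3705.8 in the knockouts. Every knockout array lay above every control array, and the lowest knockout was more than double the highest control. The log2 change was 1.40 ± 0.079, or 2.64-fold higher (95% interval 1.21 to 1.59), and the litters gave 1.44, 1.5 and 1.26.

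The other Fst probe set had 1134.8, 1016.5 and 1315.8 in controls and 3647, 3227.1 and 2881.7 in knockouts. These groups did not overlap either, and the log2 change was 1.48 ± 0.12. On this probe set litter C had the smallest difference, 1.12 against 1.67 and 1.65 in litters A and B. The 2 probe sets read the same RNA, and over the 6 arrays their log2 values had r = 0.99. Neither Fst probe set was called with the intensities as deposited (log2 changes 1.24 and 1.32), without an intensity trend (limma adjusted p = 0.0772 and 0.11), without litter A (1.38 and 1.39) or without litter B (1.35 and 1.40). A change in the share of a cell type and a change in RNA per cell cannot be told apart in these pools.

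Fstl3, a close relative of follistatin that also binds activins, had intensities of 57.1, 66.8 and 47.8 in controls and 65.3, 48.5 and 52.1 in knockouts (chr10:79777274-79782630). The arrays of both genotypes were interleaved. The log2 change was -0.04 ± 0.16 with a 95% interval of -0.42 to 0.34.

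Fstl1 encodes a secreted glycoprotein with a follistatin-like domain (chr16:37777055-37836516). Its brighter probe set had 364.8, 323.6 and 298.2 in controls and 209.7, 241 and 295.9 in knockouts. The groups did not overlap, but the highest knockout, of litter C, lay just under the lowest control, of the same litter. The log2 change was -0.39 ± 0.15 and was not called. The litters gave -0.75, -0.40 and -0.01, and without litter C it was called at -0.58. The other Fstl1 probe set gave 169.9, 193.6 and 128.1 in controls and 85.9, 149.4 and 152.4 in knockouts, with overlap and a log2 change of -0.33 ± 0.20.

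Among the BMP antagonists Sostdc1 was the called gene. Its product, also known as ectodin or Wise, binds BMPs and the Wnt co-receptors of the LRP family, and the gene lies at chr12:36314169-36318452. The brighter of its 2 probe sets had 3731.6, 3883.3 and 1092.3 in controls and 1180.8, 887.7 and 531.3 in the knockouts. The knockout was lower in each litter, but the groups overlapped: the control of litter C lay under the knockout of litter A. The log2 change was -1.59 ± 0.19, or 3.01-fold lower (95% interval -2.05 to -1.13), and the litters gave -1.65, -2.11 and -1.02.

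The other Sostdc1 probe set had 2540.8, 2583.2 and 565.8 in controls and 488.6, 416.1 and 183.3 in knockouts. Here the groups did not overlap, and the log2 change was -2.16 ± 0.19, or 4.46-fold lower, and the litters gave -2.34, -2.59 and -1.55. Over the 6 arrays the log2 values of the 2 probe sets had r = 0.996, and they differed in the size of the drop. Without the litter block, which compares the genotypes across litters, neither probe set was called (adjusted p = 0.221 and 0.181 from limma), nor was either without an intensity trend (0.118 and 0.11), without litter A (-1.56 and -2.07) or without litter B (-1.33 and -1.94). The brighter one was also not called with a constant of 64 (-1.54, limma adjusted p = 0.0617), nor was the mean of both (-1.87, 0.0561).

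Litter C stood apart in Sostdc1 within each genotype. The choice of genes used the knockout against control differences and not this comparison. The gene and the litter were still picked with values of these 6 arrays known, so the shares below are a description. The control of litter C differed by -1.79 on the log2 scale from the mean of the controls of A and B, or was 3.45-fold lower. Of the 13219 probe sets with a mean intensity of at least 64, 0.25% were as low or lower in that array by this measure. The knockout of litter C differed by -0.93 from the other knockouts, which 0.598% of these probe sets matched. On the other probe set the shifts were -2.15 and -1.23. With 1 array on one side of each comparison there is no test. The Fst probe sets differed by 0.27 and 0.29 in the control of litter C and by 0.06 and -0.25 in the knockout. The fibroblast marker sum was 713.4 in the same control array, against 239.9 and 250.1 in the others. The dermal papilla sum was also higher there (397 against 130.3 and 141.3) and the muscle sum lower (2282.9 against 3362.2 and 3385.2). Before normalization the total of this array was 1.5-fold that of the knockout of litter C. The part of each in the Sostdc1 value was not tested.

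**Figure D2:**
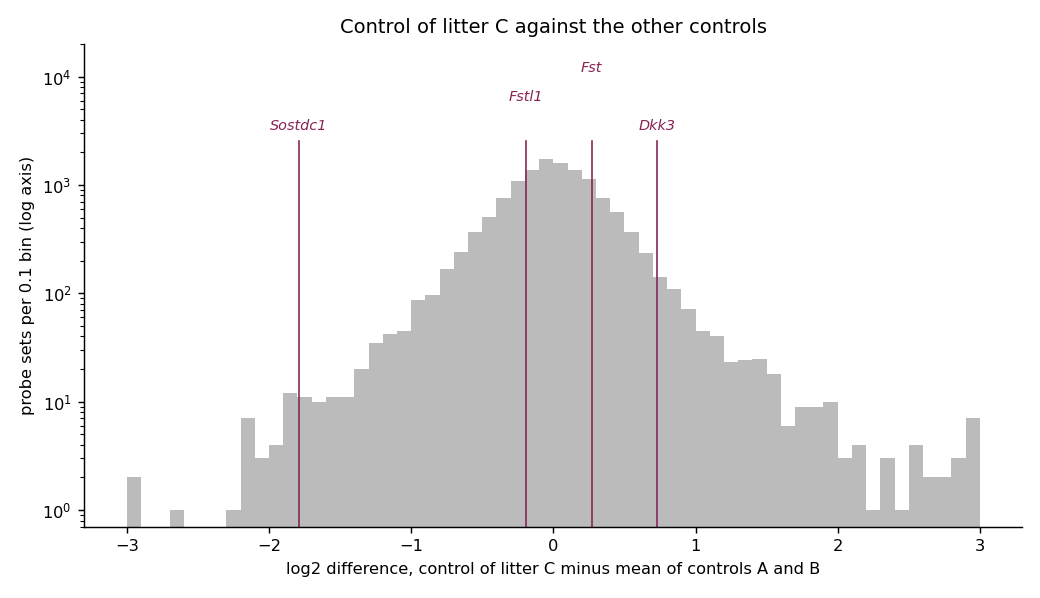
Histogram of the log2 difference between the control array of litter C and the mean of the other 2 control arrays, over 13219 probe sets with a mean intensity of at least 64 (log count axis, values past 3 either way in the end bins). Lines mark the 4 antagonist genes of that brightness, with Sostdc1 in the low tail at -1.79 and Fst at 0.27.

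Nog, which encodes the BMP-binding noggin, was dim (chr11:89300638-89302559). It had 16.4, 13.4 and 25.9 in controls and 20.1, 20.5 and 44.7 in knockouts, so the arrays overlapped and litter C was the highest of each genotype. The log2 change was 0.33 ± 0.17. Grem1, which encodes the BMP-binding gremlin of the DAN family, was dim as well, with 4.38, 0.467 and 10.2 in controls and 13.1, 8.08 and 12.4 in knockouts (chr2:113748675-113758648). All 6 arrays lay under the array median of 17.5. Its log2 change of 0.39 ± 0.14 depended on the added constant, with 1.42 when 1 was added and 0.12 when 64 was added, and it was called at neither.

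Bambi, the membrane pseudoreceptor, resembles a type I receptor without its kinase and so dampens BMP, activin and TGF-beta signals (chromosome 18, 3507011 to 3516404). It had 38.4, 38.3 and 19.3 in controls and 27.5, 18.6 and 20.7 in knockouts. As with Sostdc1, the control of litter C lay among the knockouts. The log2 change was -0.30 ± 0.19 and was not called.

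None of the 3 genes of the Wnt side was called. Dkk3, a divergent member of the Dickkopf family whose role in Wnt signalling is less clear than that of its relatives, lies at chr7:112116019-112159482. Its brighter probe set had 64.5, 81.8 and 131.4 in controls and 105.1, 119.1 and 70.9 in knockouts. The litters disagreed: the knockout was higher in A and B (0.59 and 0.47) and lower in C (-0.76), for a fitted log2 change of 0.10 ± 0.27. The other Dkk3 probe set had 62.6, 56.3 and 71.6 in controls and 79.7, 91.9 and 73.1 in knockouts. There the groups did not overlap, but the change of 0.30 ± 0.15 was not called, and over the 6 arrays the 2 probe sets had r = 0.595. With the intensities as deposited the fitted change of the brighter one was -0.11 and with arrays shifted to the same median -0.05.

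Sfrp1 encodes a secreted protein with a frizzled-like domain that binds Wnts (chr8:23411383-23449632), and it was measured by 5 probe sets, each of them dim. The brightest had 15.2, 23.9 and 26.6 in controls and 16.9, 16.9 and 19.1 in knockouts. The arrays overlapped on every Sfrp1 probe set, and the 5 log2 changes lay between -0.16 and 0.09. The 95% interval of the brightest was -0.56 to 0.24 on a scale that understates the changes of dim genes.

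Wif1 encodes the Wnt inhibitory factor, which binds Wnts through its own WIF domain and is also a dermal papilla gene (chr10:121034004-121100642). By the group means it was dim. It had 8.32, 11.3 and 65.6 in controls and 8.55, 34.6 and 50 in knockouts. Both arrays of litter C were high and both arrays of litter A were near 8, and the log2 change was 0.20 ± 0.25. The fibroblast sum was highest in litter C in both genotypes. The dermal papilla sum, which holds Wif1 itself, was highest in litter C among controls and lowest there among knockouts (297.2, 297.9 and 254.9), and the part of either in the Wif1 values was not tested.

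**Figure D3:**
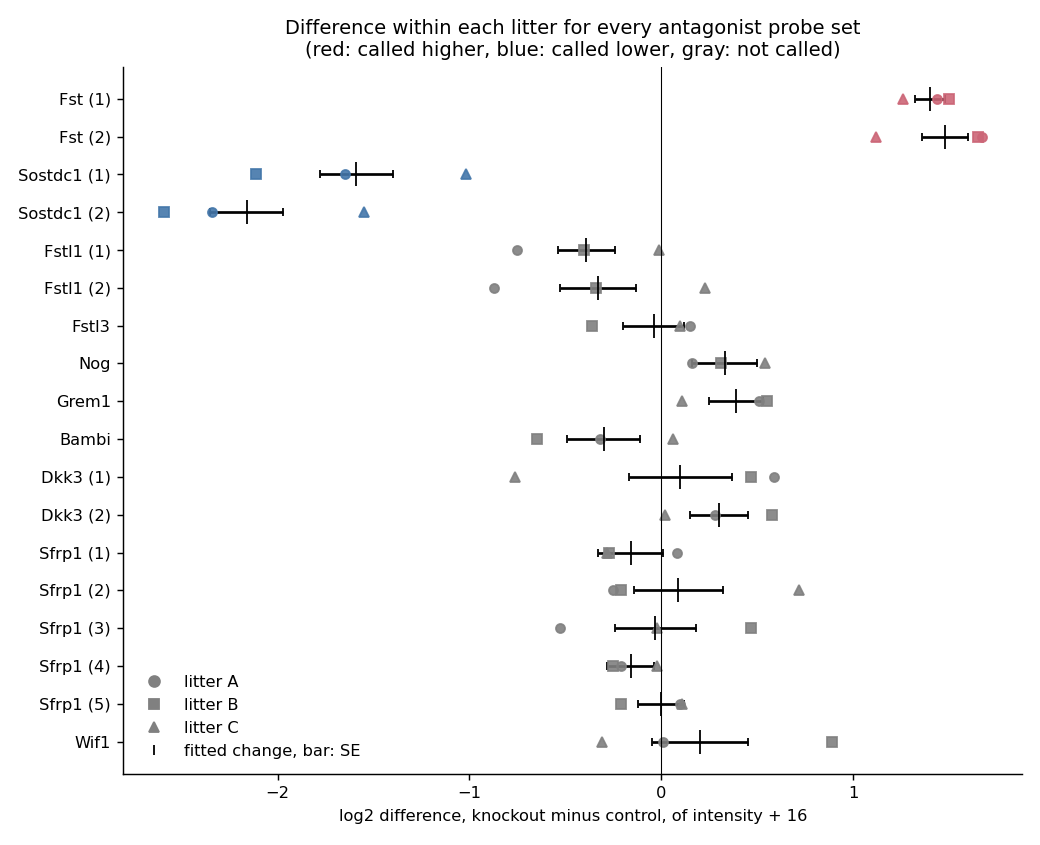
Log2 difference between knockout and control of each litter (markers) and the fitted change ± SE (black) for all 18 probe sets, with numbers in brackets ordering the probe sets of a gene by brightness. The 3 markers of both Fst probe sets lie between 1.12 and 1.67 and those of both Sostdc1 probe sets between -2.59 and -1.02, while litter C pulls Dkk3 to -0.76.

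The genes around these antagonists were followed in 6 lists, of which 114 of 122 entries were measured. Over the 6 lists none rose and Acvr1b and Fzd7 fell, which is 1.75% of the entries beside 0.42% of all probe sets. At an unadjusted p under 0.05 the same limma fit had 11 entries higher and 26 lower, 32.5% in all, beside 14.6% of all probe sets (7.06% higher and 7.58% lower). These shares are not of like sets, since an entry is the brightest probe set of its gene while all probe sets include many dim ones. In the fit without the 40% dimmest probe sets, 5767 of 27023 had an unadjusted p under 0.05. The list of Wnt targets gave 5 of the higher entries and the list of Wnt receptors 10 of the lower.

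Other antagonists of the 3 pathways were mostly dim, 19 of 24 measured. None was called, and at an unadjusted p under 0.05 there was 1 higher and 2 lower, a share near that of all probe sets. Their median log2 change was -0.09. Twsg1, which encodes a BMP-binding modulator of chordin, had 228.5, 189.6 and 191.5 in controls and 125.7, 150.1 and 167.9 in knockouts, a log2 change of -0.42 ± 0.14 (limma adjusted p = 0.254). Kremen1, a receptor for Dickkopf proteins, had a log2 change of 0.27 ± 0.13 (limma adjusted p = 0.42) and of -0.10 on its next probe set, the frizzled-related Sfrp4 0.30 ± 0.18 (0.503) and the DAN family gene Nbl1 -0.24 ± 0.20 (0.649).

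Among the ligands, Inhba, which encodes the activin A subunit that follistatin binds, had 251.8, 262.9 and 531.8 in controls and 704.9, 718.6 and 634.3 in knockouts. The groups did not overlap, and the control of litter C was nearer to the knockouts than to the other controls. The log2 change of 1.02 ± 0.23 was not called (limma adjusted p = 0.128) and the litters gave 1.43, 1.40 and 0.25. Without litter C it was called at 1.41, and also without the 40% dimmest probe sets (adjusted p = 0.0445). A second, dim Inhba probe set had 0.03 ± 0.073. Inhbb, the activin B subunit, went the other way with 105.8, 118.2 and 82.2 in controls and 60.3, 62.4 and 66.5 in knockouts, a log2 change of -0.57 ± 0.15 (adjusted p = 0.164), while its other probe set had 0.11 ± 0.28. Bmp2 had a log2 change of -0.70 ± 0.15 (adjusted p = 0.115), with 39.6, 52.2 and 55.6 in controls and 19, 27.4 and 26.1 in knockouts. Bmp1, which despite its name is a metalloproteinase that cleaves chordin and procollagens, had -0.96 ± 0.13 (adjusted p = 0.0514). With the mean of its probe sets it had -0.60. Of the 17 measured entries of this list, which count Bmp1 as well, none was called. At an unadjusted p under 0.05, 2 were higher and 3, Bmp1 among them, were lower. Of the entries 11 were dim, and the median was 0.06.

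Of the 14 receptors and co-receptors for BMP and activin, Acvr1b fell. Acvr1b encodes ALK4, the type I receptor through which activins signal, and it had 566.1, 601.5 and 468.4 in controls and 338.6, 376.3 and 275.6 in knockouts. Every knockout lay under every control. The log2 change was -0.70 ± 0.083, which is 1.63-fold lower at a limma adjusted p = 0.0394, and the litters gave -0.72, -0.65 and -0.73. It was not called as deposited (-0.88, adjusted p = 0.283), with arrays shifted to the same median (0.0565), without the litter block (0.0936), with a constant of 64 (0.0576), without a trend (0.118), without litter A (0.276) or without litter B (0.432). Its other probe set, which was dim, had a log2 change of 0.11 ± 0.21, and the mean of both was -0.29 (limma adjusted p = 0.329). The BMP receptors Bmpr1a (-0.32 ± 0.081, adjusted p = 0.155), Bmpr2 (-0.34 ± 0.10, 0.214) and Acvr1 (0.19 ± 0.12, 0.544) and the co-receptor Rgma (-0.68 ± 0.16, 0.134) were not called. At an unadjusted p under 0.05 the list had 1 entry higher and 4 lower, beside 7.06% and 7.58% of all probe sets. Of its 14 entries 5 were dim, and the median was 0.00.

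SMADs and genes that BMP signals are known to induce held no call among 21 measured, with 2 higher and 5 lower at an unadjusted p under 0.05 and a median of -0.18. The lowest log2 change among the named ones was that of Id4, a member of the inhibitor of DNA binding family, with 418.8, 418.8 and 270.6 in controls and 145.9, 159.4 and 180.2 in knockouts (-1.09 ± 0.18, limma adjusted p = 0.0724). Without litter C Id4 was called at -1.37. Id1, Id2 and Id3, the usual readouts of BMP signalling, were looked up after the values were seen and had log2 changes of -0.08 ± 0.13, -0.18 ± 0.21 and -0.25 ± 0.12, none called. Their arrays overlapped: Id1 had 995.4, 992 and 1103.8 in controls and 717, 1013.6 and 1255.9 in knockouts. The litters disagreed, with -0.46, 0.03 and 0.18 for Id1, -0.52, -0.54 and 0.52 for Id2 and -0.44, -0.42 and 0.10 for Id3. Of the same list, Smad6 had -0.67 ± 0.18 (limma adjusted p = 0.176) and Smad7 0.28 ± 0.12 (0.35), both with overlap of the groups. Smurf1, a ubiquitin ligase that targets BMP SMADs, had 0.68 ± 0.11 (adjusted p = 0.0691), and the epidermal transcription factors Dlx3 and Gata3 had -0.69 ± 0.17 (0.146) and -0.54 ± 0.14 (0.161).

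The list of Wnt receptors and co-receptors also holds Rspo1, Rspo2, Rspo3, Lgr4, Lgr5, Lgr6, Znrf3 and Rnf43, which are not Wnt receptors. Its median log2 change was -0.36, beside 0.0018 over all probe sets, and within the litters the medians were -0.46, -0.37 and -0.18. Of 24 measured entries, 13 were lower and 1 higher without overlap of the groups, beside 9.43% and 8.79% of all probe sets. At an unadjusted p under 0.05, 10 were lower and none higher. Lgr4 (-1.29 ± 0.36), Lgr5 (-0.93 ± 0.21) and Rnf43 (-0.86 ± 0.22) were among the lower in both counts, and none of them was called. Fzd7 was the 1 entry of the list that fell, and the number of lower calls ran from 0 to 9 over the alternatives. This frizzled receptor had 336, 367.8 and 381.1 in controls and 195.4, 156.2 and 163.9 in knockouts, with no overlap. Its log2 change was -1.01 ± 0.12, which is 2.02-fold lower at a limma adjusted p = 0.0387, and the litters gave -0.74, -1.16 and -1.14. The groups did not overlap on its other, dim probe set either, which was not called (limma adjusted p = 0.0516). Fzd7 was not called as deposited (-1.20, adjusted p = 0.164), with a constant of 64 (-0.85, 0.0557), without a trend (0.114), with the mean of probe sets (0.0561), without litter A (-1.15, 0.155) or without litter B (-0.94, 0.43).

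Of the other frizzled genes none was called. Fzd10 was higher in the knockout of each litter, at 0.18 ± 0.15 (limma adjusted p = 0.633), and the dim Fzd9 had 0.08. Those with the smallest p were lower, Fzd2 -0.69 ± 0.12 (limma adjusted p = 0.0822), Fzd5 -0.68 ± 0.12 (0.0822) and Fzd1 -0.59 ± 0.11 (0.0923). The other Fzd5 probe set, which was not dim, had -0.17 ± 0.16 with overlap of the groups. The Wnt-binding receptor Ryk had -0.51 ± 0.11 (adjusted p = 0.118). Lrp6, the Wnt co-receptor to which Sostdc1 binds, was looked up after the values were seen and had 171, 177.3 and 192.3 in controls and 217.7, 186.1 and 179.7 in knockouts, with overlap and a log2 change of 0.10 ± 0.12.

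Wnt target and feedback genes held no call among 14 measured, with 5 higher and 2 lower at an unadjusted p under 0.05 and a median of 0.14. The cyclin gene Ccnd1 had 646.9, 594.9 and 789.9 in controls and 1149.8, 1005.9 and 978 in knockouts (0.62 ± 0.12, limma adjusted p = 0.0896), and the matricellular gene Ccn4 had 0.75 ± 0.13 (0.082). The transcription factor Sox4 had -0.59 ± 0.083 (adjusted p = 0.0543), or -0.36 with the mean of its probe sets. The Wnt inhibitor Apcdd1 had -0.44 ± 0.092 (0.11). Also higher at an unadjusted p under 0.05 were Nkd2 (0.64 ± 0.20, limma adjusted p = 0.219) and the dim Lef1 (0.52 ± 0.17, 0.248) and Edar (0.41 ± 0.15, 0.281). Their groups did not overlap. Axin2, the most used readout of beta-catenin signalling, was looked up after the values were seen and had 79, 110.9 and 71.8 in controls and 85.1, 66.3 and 77.3 in knockouts. Its groups overlapped, with a log2 change of -0.15 ± 0.18.

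**Figure D4:**
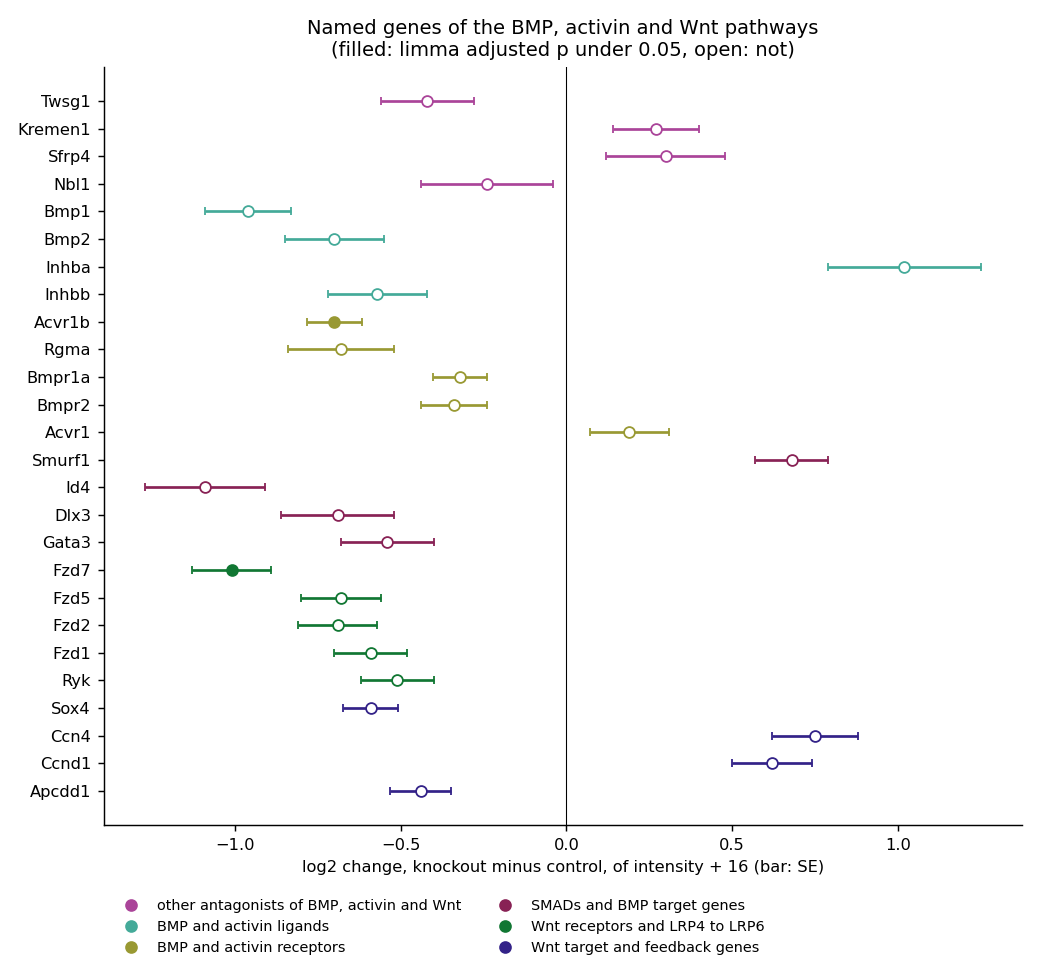
Log2 change ± SE, knockout minus control, of the genes named by rule from the 6 pathway lists, coloured by list, with filled markers for called genes. Acvr1b (-0.70) and Fzd7 (-1.01) are filled, and Inhba lies highest at 1.02.

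The genes whose log2 values followed Fst and Sostdc1 most closely over the 6 arrays were found among 12073 single-gene probe sets with a mean intensity of at least 64. These correlations are a description, since the arrays share litters and genotypes and the best of many was taken. Ran (r = 0.999), Eif2s3x (0.998), Ndufa12 (0.997) and Slc19a1 (0.997) were most like Fst. Ran, a small GTPase of nuclear transport, had 2696.2, 2589.2 and 2807.7 in controls and 3857.8, 3784.5 and 3844.2 in knockouts. Its range between genotypes was smaller than that of Fst, a log2 change of 0.50 ± 0.068 against 1.40 ± 0.079. Eif2s3x is the X-linked partner of Eif2s3y.

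Odf2 (r = 0.999), Hcfc1r1 (0.998), Cast (0.997) and Tgfb1i1 (0.996) were most like Sostdc1. In each of the 4, as in Sostdc1, the control of litter C lay under the knockout of litter A. Picking genes by likeness over these same arrays favours such a shared order, so nothing is read from it. Hcfc1r1 had 827.5, 806.9 and 429.2 in controls and 451.1, 391.9 and 278.7 in knockouts, and Tgfb1i1, a focal adhesion and nuclear receptor co-factor, had 247.4, 237.7 and 124.7 in controls and 130, 117.5 and 79.4 in knockouts.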

How the data were processed

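The authors deposited linear intensities of 45101 probe sets on 6 arrays. Trizol RNA was labelled with biotin by in vitro transcription, per the labels' protocols. The background correction, probe summary and scaling were not given in the sources used here, and array totals differed by up to 1.5-fold, the ratio of the control to the knockout of litter C. The 64 control probe sets were left out. The other 45037 were quantile-normalized and fitted on the scale log2(intensity + 16) with limma 3.58.1 (R 4.3.3, lmFit, eBayes with an intensity trend) with litter as a block, two-sided with Benjamini-Hochberg adjustment. The submitters compare pools within litters, and deviations from the genotype means correlated between the 2 arrays of a litter (r = 0.175 for A, 0.0474 for B and 0.207 for C). Symbols came from the platform annotation of the probes, updated through RefSeq (GRCm38.p6), which also gave positions: 34945 probe sets had 1 gene, 932 several and 9160 none. The brightest probe set stands for a gene.

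The genes, lists and tests were chosen with earlier results of these data known. Named were all 10 genes, Gpx4, Eif2s3y, called genes of each list and up to 4 others with the smallest p that were not dim, and for Fst and Sostdc1 the 4 most alike. Alternatives were the scaling, the block, the added constant, a filter, the trend, each litter and the mean of probe sets. On simulated arrays with 200 changed probe sets brighter than the median, 8.9% of 2-fold and 69% of 4-fold changes were found, and 0.615% of calls were false. The simulated arrays had independent noise without litter effects or array-wide shifts, so these shares do not carry over to the real arrays.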

Additional observations from a re-analysis of the deposited data

How the results depend on the processing

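With Fst and Sostdc1 the count of called antagonist genes was 2. It was 1 with intensities as deposited (Fst lost), 1 without the replicate block that pairs arrays by litter, 1 with a constant of 64, 1 with the mean of all probe sets of a gene (Sostdc1 lost in these 3) and 0 without an intensity trend (4 at an unadjusted p under 0.05). With a litter left out it ranged from 0 to 3 (0 without litter A or B, with 2 at an unadjusted p under 0.05 each time). No antagonist gene that was called changed sign under any alternative run: Fst lay between 1.24 and 1.47 and Sostdc1 between -1.88 and -1.33. Over all probe sets 189 were called, against 35 as deposited (3 higher, 32 lower, with a median log2 change of -0.066), 710 with arrays shifted to the same median (198 higher, 512 lower), 601 with a constant of 1, 59 with 64, 1130 without the 40% dimmest, 6 without a trend and 135 without the block. With a litter left out limma gave 0 to 2773, the 0 without litter B (3700 at an unadjusted p under 0.05) and the 2773 without litter C. The median of other antagonists was -0.13 as deposited, -0.26 and -0.03 with constants of 1 and 64, -0.02 without the dimmest and -0.06 to -0.04 with a litter left out. That of ligands was 0.26 with a constant of 1, -0.07 without the dimmest and -0.04 to 0.04 with a litter left out. That of SMADs and BMP targets was -0.33 as deposited, -0.27 with arrays shifted, -0.11 with a constant of 64, -0.08 with the mean of probe sets and -0.23 to -0.03 with a litter left out. That of the Wnt receptor list was -0.58 and -0.16 with constants of 1 and 64, -0.22 with the mean of probe sets and -0.41 to -0.28 with a litter left out. That of Wnt targets was 0.01 as deposited, 0.07 with arrays shifted, 0.26 and 0.08 with constants of 1 and 64, 0.19 without the dimmest, 0.09 with the mean of probe sets and 0.07 to 0.19 with a litter left out. The Wnt receptor list had 0 lower calls as deposited, without a trend, with a constant of 64, with the mean of probe sets and without litter A or B. It had 6 with arrays shifted and without the dimmest, 3 with a constant of 1 and 9 without litter C, and no higher call in any. Without litter C the SMAD list had 7 lower calls and 1 higher, the BMP and activin receptors 3 lower and the other antagonists none. Where the text gives no value the cause of a shift was not tested. Signal over background limits Nog, Grem1, Sfrp1 and Wif1.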
